A study of Mus musculus with 12 samples.

Results

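The unfolded protein response (UPR) and ER-associated degradation (ERAD) were examined in mouse muscle fibers through 10 genes chosen by name. A sensor branch of 4 genes was formed by the receptors *Ern1*, *Eif2ak3* and *Atf6* and the transcription factor gene *Xbp1*. The degradation machinery was represented by 6 genes, *Herpud1*, *Sel1l*, *Syvn1*, *Derl1*, *Derl2* and *Vcp*. All 10 were found among the 55367 gene symbols of the deposited tables, and all 10 were among the 14428 genes that entered the tests.

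RNA-seq was performed on isolated fibers of the extensor digitorum longus (EDL), a fast muscle of the lower leg, from C57BL/6J mice, in 3 groups of 4 samples. Young fibers came from mice aged 3–4 months. Fluo-4 normal and Fluo-4 abnormal fibers came from mice aged 26–28 months and were separated under a fluorescence stereomicroscope by their staining with Fluo-4, a fluorescent Ca2+ indicator. The comparison of abnormal with normal fibers asks how fibers of aged muscle with and without the aberrant stain differ, and the comparisons with young fibers set both against young muscle. No treatment or engineered allele is named for any group. The methods name a commercial supplier for C57BL/6J mice and a research center as the source of aged mice. If the young mice came from the supplier, age and source cannot be told apart in the comparisons with young fibers. All fibers were released from the muscle with collagenase, the aged fibers carried the dye, and the abnormal staining is described in male aged mice. Whether the young fibers were also stained is not given in the sources used here. How many fibers or mice each sample holds is not given in the sources used here, so p-values measure the spread between these samples, which may in part be technical. Values were in TPM, a unit that corrects for depth and transcript length and whose values sum to 1000000 in every sample, so the read depth behind each value is unknown.

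Proteins that enter the ER are folded there, and unfolded proteins activate receptors in its membrane. IRE1, encoded by *Ern1*, splices *Xbp1* RNA so that an active transcription factor is made, PERK, encoded by *Eif2ak3*, slows translation, and ATF6 is cut in the Golgi to release a transcription factor. In ERAD, proteins that fail to fold are recognized, moved out of the ER, ubiquitinated and drawn out by the VCP ATPase for the proteasome. In muscle the ER includes the sarcoplasmic reticulum, the Ca2+ store of the fiber.

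ATF6 and XBP1 are known to act through short promoter elements, and the promoters of 3 of the machinery genes hold an exact match to one of them. These matches are shown because they are the letters through which the sensor branch is known to act. Windows from 250 bases before to 50 bases after the gene start were read from RefSeq (GRCm38.p6) on the strand of the gene, 5′ to 3′, and each sequence is the match in capitals with 25 bases on either side. *Syvn1* holds an ER stress response element (ERSE) 44 to 26 bases before its start (chr19:6046507-6046575, plus strand). *Herpud1* holds an ERSE-II 52 to 42 bases before its start (chr8:94386352-94386412, plus strand). *Vcp* holds the core of the unfolded protein response element (UPRE) 114 to 107 bases before its start (chr4:43000589-43000646, minus strand).
Syvn1 ERSE: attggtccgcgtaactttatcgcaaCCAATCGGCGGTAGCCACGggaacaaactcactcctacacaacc
Herpud1 ERSE-II: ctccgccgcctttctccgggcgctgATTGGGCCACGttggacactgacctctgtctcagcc
Vcp UPRE core: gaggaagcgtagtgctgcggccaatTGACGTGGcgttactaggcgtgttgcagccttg

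The letters searched, on both strands, were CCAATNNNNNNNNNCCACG for ERSE, ATTGGNCCACG for ERSE-II and TGACGTGG for the UPRE core. All 3 share CCACG on one strand or the other, and the matches printed above do not overlap. Of 32851 promoter windows, ERSE occurred in 39 (0.119%), ERSE-II in 12 (0.0365%) and the UPRE core in 222 (0.676%). Windows were found for 8 of the 10 genes, with 2 windows for *Derl2*. The windows of *Ern1*, *Xbp1*, *Eif2ak3*, *Sel1l* and *Derl2* held none of these letters. *Atf6* and *Derl1* were not matched to a window.

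**Figure D1:**
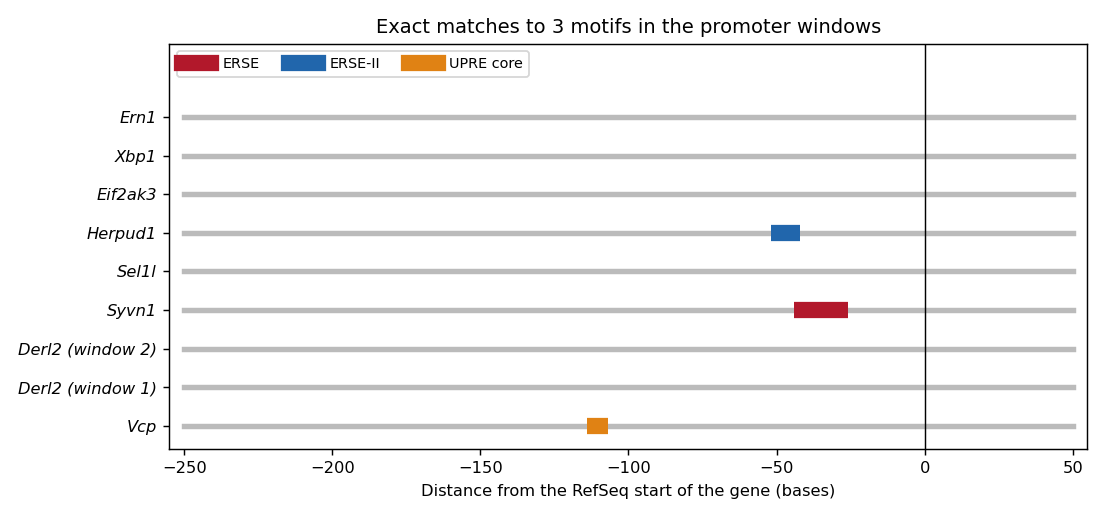
Position of exact motif matches (colored blocks) in the promoter windows of the members (gray lines), with distance from the RefSeq start of the gene in bases on the x axis. The ERSE of *Syvn1* and the ERSE-II of *Herpud1* lie within 52 bases of the start and the UPRE core of *Vcp* lies 114 to 107 bases before it.

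Of the 10 genes, 7 were higher in Fluo-4 abnormal than in Fluo-4 normal fibers at an adjusted p under 0.05, and none was lower. They were *Xbp1* and *Atf6* of the sensor branch and *Herpud1*, *Sel1l*, *Syvn1*, *Derl1* and *Vcp* of the machinery. The other 3, *Ern1*, *Eif2ak3* and *Derl2*, did not pass the test. Group means of the 7 genes were 1.29 to 1.88 times as high in abnormal fibers. Over all tested genes, 7.36% were called higher in this comparison, and among the 6348 genes of at least 5 TPM, 888 were. Adjusted p-values are from limma on log2(TPM + 1) over all 12 samples, with Benjamini-Hochberg adjustment over all tested genes. Fold changes on this scale understate the change of genes with low TPM.

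The scaling of the samples and their *Myh4* share moved with this comparison and touch every value in it. With TPM as deposited, the median change of all tested genes was 0.10 (log2), and 78.7% of the called genes were higher in abnormal fibers (1062 higher, 287 lower). After scaling with TMM-type factors, which center most genes on no change, the median was 0.0 and 36.3% of the called genes were higher (310 higher, 545 lower). Under that scaling all 10 members were still higher in abnormal fibers, with a median change of 0.26 in place of 0.44, and 2 of them were called, *Atf6* and *Derl1*. The share of TPM held by *Myh4*, the myosin heavy chain gene of the fastest fibers, ranged from 1.08% to 1.56% in abnormal and from 0.625% to 0.981% in normal fibers. With this share as a covariate, 0 members were called by limma, and the changes moved unequally. *Xbp1* was at 0.68 (adjusted p = 0.0809) in place of 0.55, *Syvn1* at 0.60 in place of 0.68, *Derl1* at 0.37 in place of 0.50 and *Derl2* at 0.57 in place of 0.29. *Atf6* was at 0.49 in place of 0.75, *Herpud1* at 0.23 in place of 0.37, *Sel1l* at 0.12 in place of 0.61 and *Vcp* at 0.0011 in place of 0.39. As the share does not overlap between the groups, it cannot be told apart from the staining in these samples. Mitochondrially-encoded genes held 4.75% to 6.92% of the TPM in abnormal and 8.75% to 10.9% in normal fibers, and their part in the changes of the members was not tested beyond a rescaling without them, which called 4 members.

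Same-numbered normal and abnormal samples deviated together from their group means. The replicate number was fitted as a fixed block on only the 2 groups compared. This called 3 members, *Xbp1* (adjusted p = 0.0299), *Sel1l* (adjusted p = 0.0456) and *Vcp* (adjusted p = 0.0286). The adjusted p under the fixed block was 0.0544 for *Derl1*, 0.0608 for *Atf6*, 0.0936 for *Syvn1* and 0.112 for *Herpud1*. Without a block, a fit of the same 2 groups called 2 members. With the block as a random effect on all 12 samples, 7 members were called. The abnormal sample was above its same-numbered normal sample in all 4 pairs for 8 of the 10 genes, all but *Eif2ak3* and *Derl2*. Replicate 1 of the Fluo-4 normal fibers was the lowest of all 12 samples for 7 members, *Ern1*, *Eif2ak3*, *Atf6*, *Herpud1*, *Sel1l*, *Derl1* and *Vcp*, and also had the lowest TMM-type factor, 0.809 against 0.907 to 1.17 in the others. Without it, 3 members were called, *Xbp1*, *Atf6* and *Derl1*. The same 3 were called without normal replicate 2, without abnormal replicate 2 and without abnormal replicate 4.

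**Figure D2:**
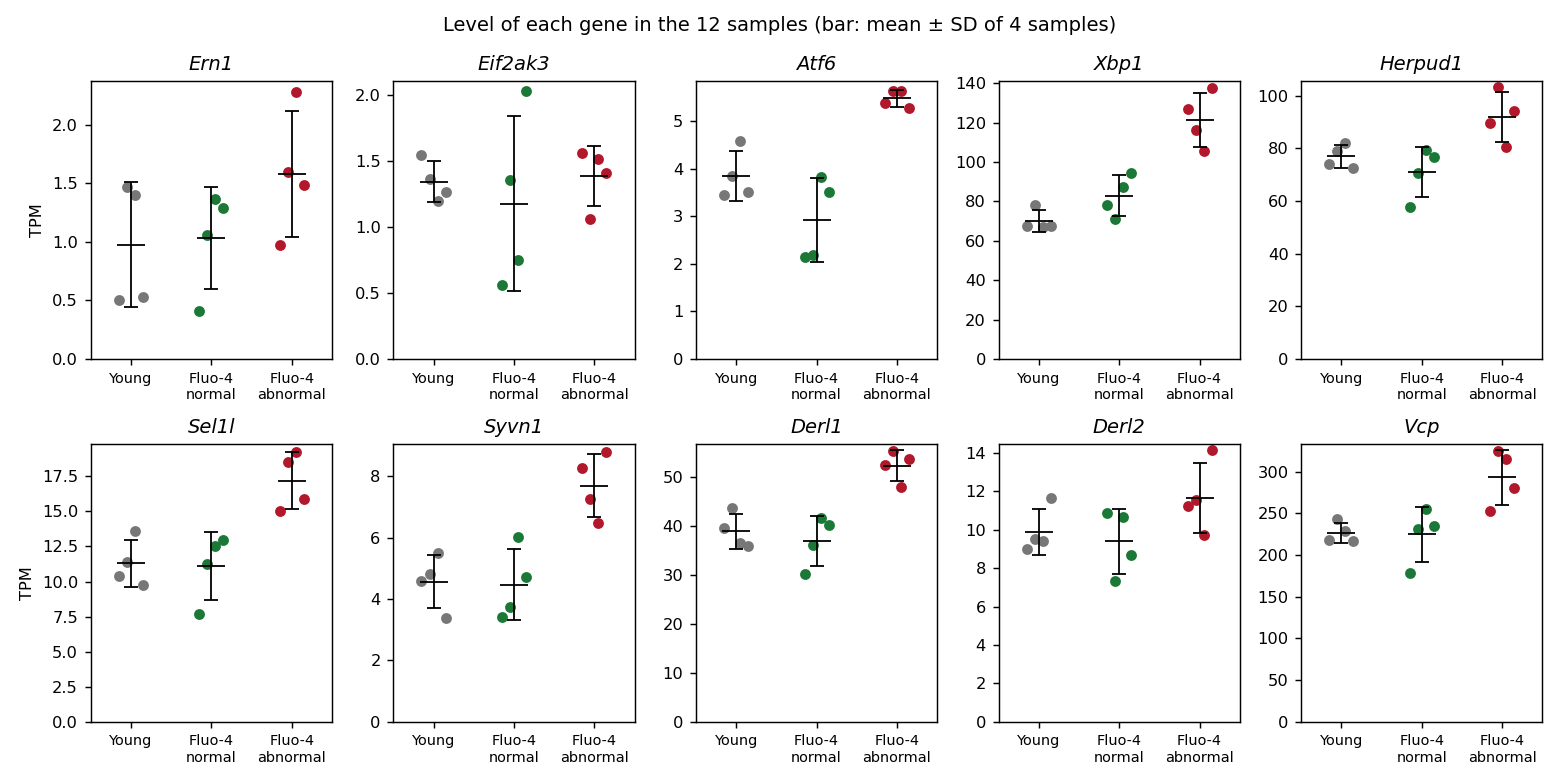
TPM of each member (y axis, starting at 0) in young, Fluo-4 normal and Fluo-4 abnormal fibers. Points are the 4 samples of a group and bars the mean ± SD. All 4 abnormal samples lie above all 4 normal samples for *Xbp1*, *Atf6*, *Herpud1*, *Sel1l*, *Syvn1* and *Derl1*.

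Among the receptors, *Atf6* was the only one called higher in abnormal than in normal fibers, and none was called against young fibers. *Atf6* (chr1:170532026-170696208 in GRCm39, minus strand, 16 exons) encodes the receptor that is itself a transcription factor precursor. In abnormal fibers it was measured at 5.39, 5.64, 5.63 and 5.27 TPM in replicates 1 to 4, and in normal fibers at 2.15, 2.19, 3.83 and 3.52 TPM. Young fibers had 3.44, 3.85, 4.59 and 3.52 TPM. Abnormal samples were close to each other and above all others, whereas the normal samples were spread and overlapped the young ones. The mean level was 5.48 ± 0.182 TPM in abnormal and 2.92 ± 0.878 TPM in normal fibers (SD, n = 4 each), 1.88 times as high. This was a change of 0.75 (log2, SE 0.168, 95% interval 0.39 to 1.11, adjusted p = 0.015), and 0.57 (adjusted p = 0.0406) with TMM-type factors. In bulk samples, more RNA of a gene per fiber and more fibers that express it cannot be told apart.

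*Ern1* (chr11:106283818-106378686, minus strand, 22 exons), which encodes the kinase and RNase IRE1, was a low-level gene. Abnormal fibers had 0.971, 1.59, 2.28 and 1.48 TPM, and normal fibers 0.412, 1.06, 1.37 and 1.29 TPM. In young fibers the values were 0.504, 1.47, 1.40 and 0.527 TPM. The 3 groups overlapped, and the young samples fell into a low and a high pair. The change between abnormal and normal fibers was 0.35 (log2, SE 0.226, 95% interval -0.14 to 0.84, adjusted p = 0.36), so neither no change nor a rise as large as that of *Xbp1* was excluded by the interval. With the *Myh4* share as a covariate the sign of this change turned (-0.38).

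*Eif2ak3* (chr6:70821461-70882235, plus strand, 17 exons), which encodes PERK, was likewise near 1 TPM. The values were 1.56, 1.06, 1.52 and 1.41 TPM in abnormal, 0.565, 1.36, 0.752 and 2.03 TPM in normal, and 1.55, 1.36, 1.196 and 1.26 TPM in young fibers. Normal fibers contained both the lowest and the highest of the 12 samples. The change was 0.18 (log2, SE 0.187, 95% interval -0.23 to 0.58, adjusted p = 0.587), and it was higher in 2 of 4 same-numbered pairs. Summed over the 3 receptor genes, the level was 8.45 ± 0.669 TPM in abnormal, 5.13 ± 1.62 TPM in normal and 6.17 ± 0.912 TPM in young fibers (SD, n = 4 each), and *Atf6* was the largest part of the sum in every sample.

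*Xbp1* (chr11:5470606-5483027, plus strand, 4 exons) encodes the transcription factor downstream of IRE1. Gene-level TPM include the spliced and the unspliced form together. Abnormal fibers had 126.9, 116.3, 105.4 and 137.5 TPM, and normal fibers 78.4, 70.9, 87.5 and 94.7 TPM. Young fibers had 67.6, 78.2, 67.0 and 67.3 TPM. Every abnormal sample was above every sample of the other groups, and 3 of the 4 young samples lay within 1 TPM of each other. The change between abnormal and normal fibers was 0.55 (log2, SE 0.102, 95% interval 0.33 to 0.77, adjusted p = 0.00602), the smallest adjusted p among the members. It was 0.32 after TMM-type scaling (adjusted p = 0.114). The span of *Ccdc117*, a gene on the other strand, covers *Xbp1* and shares 1526 bp of exon with it, and these unstranded libraries cannot separate them, but *Ccdc117* was listed at 7.56 to 11.7 TPM in all 12 samples.

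Of the machinery, the RNA of *Syvn1* and *Sel1l*, which encode the core of the HRD1 ligase complex, was called higher. So was the RNA of *Derl1*, *Herpud1* and *Vcp*. *Syvn1* (chr19:6096606-6103747, plus strand, 16 exons) encodes the ubiquitin ligase HRD1. It was measured at 8.27, 7.27, 6.46 and 8.79 TPM in abnormal and at 3.42, 3.76, 6.01 and 4.71 TPM in normal fibers. Young samples were at 4.59, 4.81, 5.49 and 3.39 TPM. No normal or young sample reached the lowest abnormal one, although normal replicate 3 came within 1 TPM of it. The group means were 7.70 ± 1.04 and 4.48 ± 1.16 TPM (SD, n = 4 each), a change of 0.68 (log2, SE 0.176, 95% interval 0.30 to 1.06, adjusted p = 0.028), and 0.49 after TMM-type scaling (adjusted p = 0.09). On the other strand, *Syvn1* shares 755 bp of exon with the long non-coding RNA *D530017H19Rik*, for which no value was used here, and 96 bp with *Mrpl49*, a mitochondrial ribosome gene listed at 16.7 to 24.0 TPM, so its values are uncertain to that extent.

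*Sel1l* (chr12:91772799-91815982, minus strand, 21 exons) encodes the partner of HRD1 that binds and stabilizes it. Abnormal fibers had 15.1, 18.5, 19.2 and 15.9 TPM, normal fibers 7.66, 11.2, 12.5 and 13.0 TPM, and young fibers 10.4, 11.4, 13.6 and 9.74 TPM. Again the abnormal samples stood above all others. The change was 0.61 (log2, SE 0.156, 95% interval 0.27 to 0.94, adjusted p = 0.028), and 0.39 after TMM-type scaling (adjusted p = 0.0806). Levels of *Sel1l* were 2.29 ± 0.575 times those of *Syvn1* within abnormal samples, 2.52 ± 0.427 times within normal and 2.497 ± 0.267 times within young samples (SD, n = 4 each), and these ranges overlapped.

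The derlins are rhomboid-like membrane proteins that form part of the exit channel for ERAD substrates. *Derl1* (chr15:57731819-57755879, minus strand, 8 exons) was at 52.4, 55.2, 47.8 and 53.7 TPM in abnormal and at 30.2, 36.0, 41.6 and 40.0 TPM in normal fibers. Young fibers had 39.6, 43.7, 36.5 and 35.9 TPM. The abnormal samples did not overlap those of either group. The change was 0.50 (log2, SE 0.101, 95% interval 0.28 to 0.71, adjusted p = 0.00982), and 0.27 after TMM-type scaling (adjusted p = 0.0472). A processed pseudogene that matches 49.8% of its transcript was listed at 0.209 to 0.884 TPM.

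*Derl2* (chr11:70896913-70910675, minus strand, 7 exons) had 11.2, 11.6, 9.75 and 14.1 TPM in abnormal fibers and 10.9, 7.32, 10.7 and 8.69 TPM in normal fibers. In young fibers the values were 8.99, 9.51, 9.41 and 11.6 TPM. These groups overlapped. The change was 0.29 (log2, SE 0.144, 95% interval -0.02 to 0.60, adjusted p = 0.228), so a change as large as that of *Derl1* lay within the interval. The level of *Derl1* was 4.54 ± 0.502 times that of *Derl2* in abnormal, 4.05 ± 0.951 times in normal and 3.99 ± 0.678 times in young samples (SD, n = 4 each), without separation of the groups.

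*Herpud1* (chr8:95113022-95123141, plus strand, 8 exons) encodes a ubiquitin-like ER membrane protein that joins the HRD1 complex and is a known UPR target. In abnormal fibers it was at 89.8, 103.3, 80.4 and 94.1 TPM and in normal fibers at 57.8, 70.7, 79.2 and 76.8 TPM. Young fibers had 74.2, 79.0, 82.2 and 72.7 TPM. Abnormal replicate 3 exceeded normal replicate 3 by only about 1 TPM and was below the highest young sample. The change from normal to abnormal fibers was 0.37 (log2, SE 0.101, 95% interval 0.15 to 0.59, adjusted p = 0.0363), and 0.15 after TMM-type scaling (adjusted p = 0.29).

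*Vcp* (chr4:42979412-43000527, minus strand, 17 exons) encodes the AAA ATPase p97, which pulls ubiquitinated proteins out of the membrane and has many roles outside ERAD. It had the highest level of the 10 genes in each group. Abnormal fibers had 252.2, 324.4, 314.7 and 280.9 TPM, and normal fibers 178.2, 230.7, 255.1 and 234.9 TPM. Young fibers had 218.3, 242.9, 228.6 and 217.3 TPM. The lowest abnormal sample was just under the highest normal one, and all abnormal samples were above all young ones. The change was 0.39 (log2, SE 0.107, 95% interval 0.16 to 0.62, adjusted p = 0.0376), and 0.16 after TMM-type scaling (adjusted p = 0.288). *Vcp-rs*, a processed pseudogene on chromosome X that matches 83.8% of the *Vcp* transcript, was listed at 53.6 ± 6.77 TPM in abnormal, 39.1 ± 5.32 TPM in normal and 39.8 ± 2.80 TPM in young fibers (SD, n = 4 each), and reads may be split between them. *Vcp* also shares 776 bp of exon with *Spata31g1* on the other strand, for which no value was used here. With *Vcp* and *Vcp-rs* added together, the change was 0.40 (adjusted p = 0.0329), an alternative chosen after seeing the data.

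Across all groups *Vcp*, *Xbp1*, *Herpud1* and *Derl1* were the genes with the highest TPM, followed by *Sel1l*, *Derl2*, *Syvn1*, *Atf6*, and then *Eif2ak3* and *Ern1*. The TPM of *Xbp1* was above that of *Herpud1* in all 4 abnormal and all 4 normal samples (means 121.5 ± 13.8 and 91.9 ± 9.51, and 82.9 ± 10.4 and 71.1 ± 9.57), and below it in all 4 young samples (70.0 ± 5.48 and 77.0 ± 4.36; SD, n = 4 each). *Sel1l* was above *Derl2* in 4 of 4 abnormal samples (17.2 ± 2.03 and 11.7 ± 1.83), and in 3 of 4 normal (11.1 ± 2.41 and 9.39 ± 1.70) and 3 of 4 young samples (11.3 ± 1.71 and 9.89 ± 1.19). *Syvn1* was above *Atf6* in 4 of 4 abnormal, 4 of 4 normal and 3 of 4 young samples. *Ern1* and *Eif2ak3* were within their spread in every group.

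Set against Fluo-4 normal fibers, 6 members had all 4 abnormal samples above all 4 normal samples, whereas 11.5% of all tested genes did. These were *Xbp1*, *Atf6*, *Herpud1*, *Sel1l*, *Syvn1* and *Derl1*. The median change of the sensor branch was 0.45 and that of the machinery 0.44 (log2), beside 0.10 for all tested genes and 0.20 for the 6348 genes of at least 5 TPM.

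**Figure D3:**
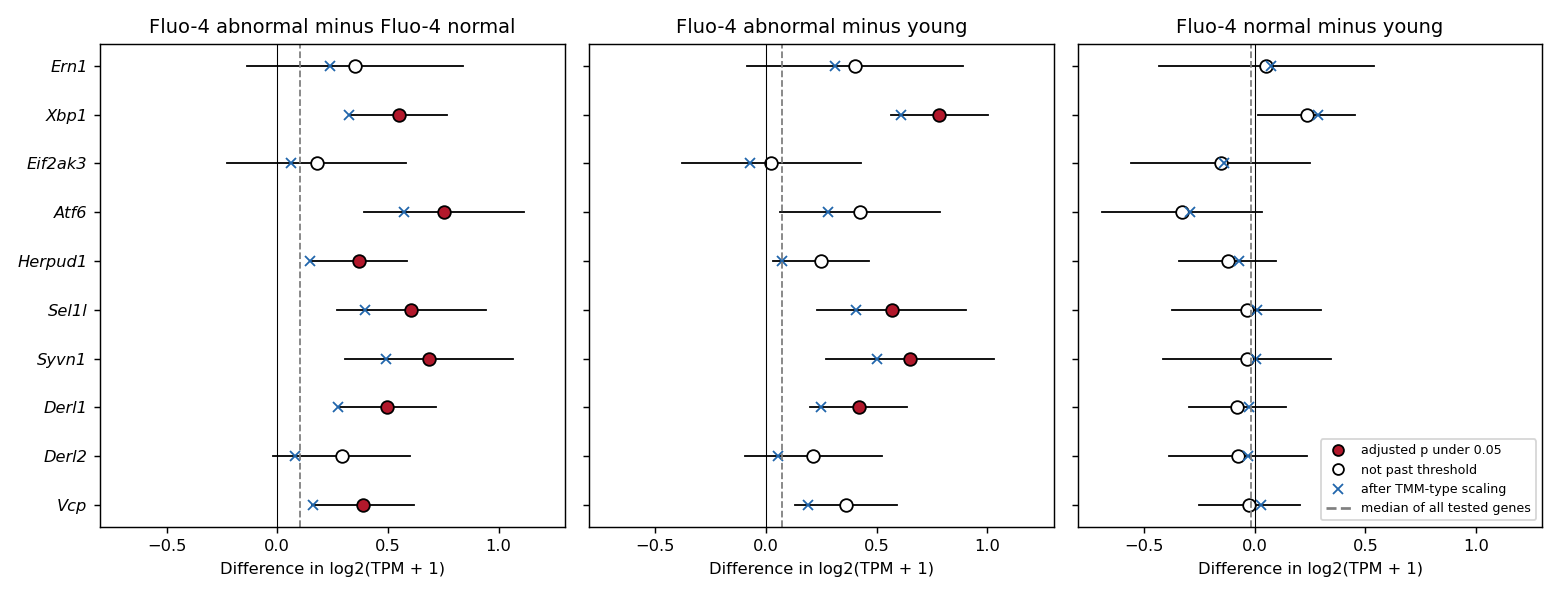
Difference between group means in log2(TPM + 1) (x axis) of each member for the 3 comparisons, with 95% intervals as lines. Filled points have an adjusted p under 0.05, crosses are the values after TMM-type scaling, and the dashed line is the median of all tested genes. Of the members, 7 are filled for abnormal against normal, 4 for abnormal against young and 0 for normal against young fibers.

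Against young fibers, the abnormal fibers had 4 members called higher and 0 called lower, where 6.09% of all tested genes were called higher. They were *Xbp1* (0.78, SE 0.102, 95% interval 0.56 to 1.00, adjusted p = 0.00061), *Syvn1* (0.65, adjusted p = 0.037), *Sel1l* (0.57, adjusted p = 0.0389) and *Derl1* (0.42, adjusted p = 0.0226). The changes of *Vcp* (0.36, adjusted p = 0.0526), *Atf6* (0.42, adjusted p = 0.143), *Herpud1* (0.25, adjusted p = 0.156), *Ern1* (0.40, adjusted p = 0.319) and *Derl2* (0.21, adjusted p = 0.419) did not pass. *Eif2ak3* changed sign between the scalings, with 0.02 as deposited and -0.07 with TMM-type factors. All 4 abnormal samples were above all 4 young samples for 6 members, *Xbp1*, *Atf6*, *Sel1l*, *Syvn1*, *Derl1* and *Vcp*, against 12.2% of all tested genes. With TMM-type factors the only member called was *Xbp1*, and over all genes the share of calls that were higher fell from 71.7% to 39.4%. Only *Xbp1* was called without young replicate 1, young replicate 4, abnormal replicate 2 or abnormal replicate 4, and without young replicate 2 only *Xbp1* and *Derl1* were called. The comparison shares the abnormal samples with the one against normal fibers.

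Fluo-4 normal and young fibers did not separate for any member. Under limma 0 members were called, where 1.15% of all tested genes were called in either direction and 0.561% higher. At an unadjusted p under 0.05 there was 1 member, *Xbp1* (0.23, 95% interval 0.02 to 0.45, adjusted p = 0.343), while 12.9% of all genes were at that level. The mean of *Atf6* was lower in normal fibers by a change of -0.33 (95% interval -0.69 to 0.03, adjusted p = 0.44), which did not pass. The other 8 changes lay between -0.15 and 0.05 (log2). With TMM-type factors 5 in place of 2 members had a higher mean in normal fibers, and 0 were called. For *Xbp1* the means rose in steps from young (70.0 TPM) to normal (82.9 TPM) to abnormal fibers (121.5 TPM), but the first step did not pass the test.

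Sensors and machinery were compared within each sample. The mean log2(TPM + 1) of the 4 sensor-branch genes was 2.65 ± 0.136 in young, 2.599 ± 0.259 in normal and 3.06 ± 0.0611 in abnormal fibers. For the 6 machinery genes it was 4.82 ± 0.0811, 4.76 ± 0.195 and 5.23 ± 0.0798 in the same order (SD, n = 4 each). Machinery minus sensors was 2.18 ± 0.0600 in young, 2.16 ± 0.141 in normal and 2.18 ± 0.114 in abnormal samples, and the difference between abnormal and normal fibers was 0.015. With a pseudocount of 0.1, which weighs low genes such as the receptors more, it turned to -0.11, within the spread between samples. The machinery summed to 473.7 ± 37.5 TPM in abnormal, 357.8 ± 50 TPM in normal and 368.5 ± 18.7 TPM in young fibers, of which *Vcp* was the largest part. *Xbp1* was 85.7 ± 35.6 times as high as *Ern1* in abnormal, 98.6 ± 61.2 times in normal and 90.7 ± 46.6 times in young samples, without separation of the groups.

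**Figure D4:**
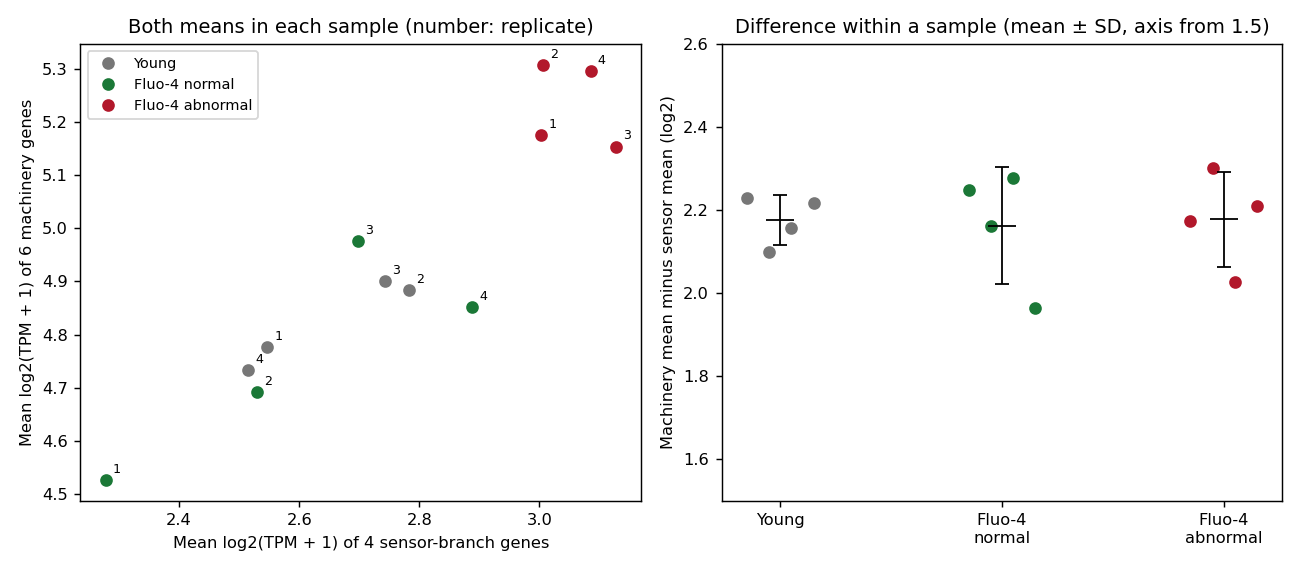
Left, mean log2(TPM + 1) of the 4 sensor-branch genes (x axis) and of the 6 machinery genes (y axis) in each sample, numbered by replicate. Right, machinery mean minus sensor mean in each sample with the mean ± SD of each group, on an axis that starts at 1.5. The 4 abnormal samples have the highest values on both axes at left, and the 3 groups overlap at right.

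Over the 12 samples, the genes whose log2(TPM + 1) followed *Xbp1* most closely were *Arl6ip5* (Pearson's r = 0.95), *Khk* (0.949), *Chrnb1* (0.949), *Tmbim1* (0.947) and *Cavin1* (0.94) among 5993 genes of at least 5 TPM. Of the other members, *Syvn1* (0.856) and *Derl1* (0.845) ranked highest. *Eif2ak3* (0.187) and *Ern1* (0.502) were the lowest. These values describe the same 12 libraries, which share the groups and the scaling, and they are not tests.

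UPR signaling genes beside the members included 3 that were called higher. Of 20 tested signaling genes, 18 had a higher mean in abnormal than in normal fibers, 3 were called higher and 0 lower, with a median change of 0.30 (0.09 with TMM-type factors, and 1 called, *Dnajc3*). The share of all tested genes called higher was 7.36%, as above, and 888 of the 6348 genes of at least 5 TPM were called higher. Beside these, the count of the signaling genes is a description and not a result about the list. The 3 were *Dnajc3*, an inhibitor of PERK (12.8 ± 1.51 against 7.73 ± 2.01 TPM, adjusted p = 0.0152), *Traf2*, an adaptor of IRE1 (8.53 ± 1.56 against 5.06 ± 0.516 TPM, adjusted p = 0.0445), and *Tmbim6*, an ER membrane protein that binds IRE1 (34.6 ± 3.04 against 24.4 ± 3.22 TPM, adjusted p = 0.0107). Genes downstream of PERK did not pass, among them *Atf4* (165.0 ± 22.7 against 146.3 ± 23.7 TPM, adjusted p = 0.396), *Ddit3* (107.4 ± 32.3 against 86.6 ± 30.7 TPM, adjusted p = 0.474) and *Trib3* (0.899 ± 0.843 against 0.422 ± 0.180 TPM, adjusted p = 0.406). The proteases that cut ATF6 did not pass either (*Mbtps1*, adjusted p = 0.612, and *Mbtps2*, adjusted p = 0.375).

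Of 18 UPR target genes, most of which encode ER chaperones and folding enzymes, 17 had a higher mean in abnormal than in normal fibers. Beside the 7.36% of all tested genes called higher, 11 of the targets were called higher and 0 lower. Their median change was 0.55 (0.34 with TMM-type factors, and 6 called). *Sdf2l1*, a cofactor of ER chaperones, had the largest change (15.03 ± 2.46 against 6.83 ± 1.52 TPM, 1.04 on the log2 scale, adjusted p = 0.0023). *Hspa5*, the ER chaperone BiP that holds the receptors inactive, was at 230.8 ± 22.2 against 141.8 ± 26.2 TPM (adjusted p = 0.00585). *Calr*, a Ca2+-binding lectin chaperone, was at 114.7 ± 19.5 against 68.8 ± 8.17 TPM (adjusted p = 0.0043). *Pdia3*, a disulfide isomerase, and *Dnajb11*, a BiP cochaperone, rose as well (adjusted p = 0.00586 and 0.00651). *Edem1*, a lectin that delivers glycoproteins to ERAD and a known target of XBP1, was the one target with a lower mean (0.566 ± 0.128 against 0.623 ± 0.101 TPM, adjusted p = 0.806).

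Among 58 other ERAD genes, 56 had a higher mean in abnormal than in normal fibers. Of the 58, 13 were called higher and 0 lower, where 7.36% of all tested genes were called higher. The median change of the list was 0.27 (0.10 with TMM-type factors, and 2 called). Among the 6348 genes of at least 5 TPM, 888 were called higher, and 220 with TMM-type factors. Beside these, the count of the other ERAD genes is a description and not a result about the list. The smallest adjusted p was that of *Ube2g2*, an E2 enzyme of ERAD (84.8 ± 7.10 against 60.0 ± 3.72 TPM, adjusted p = 0.00365), followed by *Herpud2*, the relative of *Herpud1* (46.6 ± 4.82 against 29.8 ± 4.45 TPM, adjusted p = 0.00442). *Selenos*, which recruits VCP to the ER membrane, was at 81.2 ± 9.54 against 55.2 ± 6.98 TPM (adjusted p = 0.0107). *Usp19*, an ER-anchored deubiquitinase, also rose (adjusted p = 0.021). *Derl3*, the third derlin, was near 0 (0.139 ± 0.181 against 0.0983 ± 0.120 TPM), and the lectin *Os9* did not pass (adjusted p = 0.447). Leaving out abnormal replicate 2 gave 3 called genes of this list, normal replicate 1 gave 5, and normal replicate 2, abnormal replicate 3 or abnormal replicate 4 gave 7.

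Of 22 VCP cofactors, all had a higher mean in abnormal than in normal fibers. While 7.36% of all tested genes were called higher, 5 cofactors were called higher and 0 lower. The median change of the cofactors was 0.35 (0.13 with TMM-type factors, with 16 higher and 0 called). Of the 6348 genes of at least 5 TPM, 888 were called higher, and 220 with TMM-type factors, so the count of the cofactors is a description too. *Nsfl1c*, which encodes the cofactor p47, had the smallest adjusted p (85.4 ± 4.51 against 65.6 ± 2.75 TPM, adjusted p = 0.0035). *Nploc4* and *Ufd1* encode the partners that bring ubiquitinated proteins to VCP. *Nploc4* was at 51.9 ± 9.85 against 32.8 ± 7.54 TPM (adjusted p = 0.0292), whereas *Ufd1* did not pass (47.4 ± 5.15 against 40.0 ± 6.52 TPM, adjusted p = 0.173). *Selenos*, *Svip*, an inhibitor of ERAD, and *Ubxn8* were the others called. Some of these genes are also in the list of other ERAD genes.

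Against young fibers, abnormal fibers had 2 of 20 signaling genes, 10 of 18 targets, 9 of 58 other ERAD genes and 5 of 22 VCP cofactors called higher. In that comparison 6.09% of all tested genes were called higher, and 656 of the 6348 genes of at least 5 TPM. Between normal and young fibers 0 genes of the 4 lists were called by limma, with 1, 0, 9 and 2 genes at an unadjusted p under 0.05, a level that 12.9% of all tested genes reached.

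**Figure D5:**
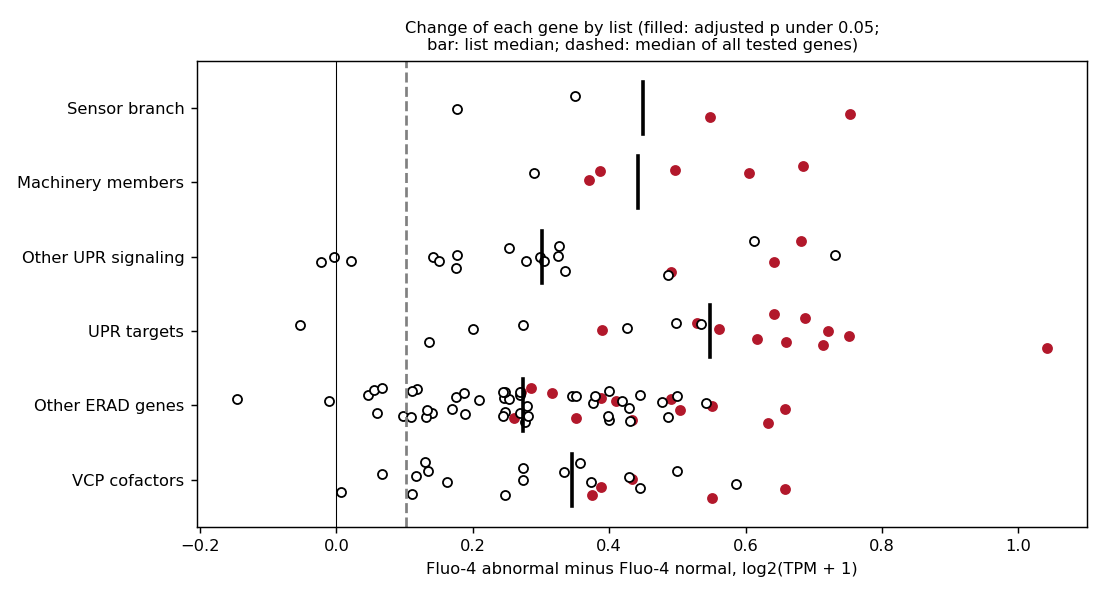
Change between Fluo-4 abnormal and Fluo-4 normal fibers in log2(TPM + 1) (x axis) of each tested gene, by list (y axis). Filled points have an adjusted p under 0.05, bars are list medians and the dashed line is the median of all tested genes. The median is 0.55 for UPR targets, 0.44 for the machinery members and 0.27 for other ERAD genes.

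Genes with an ERSE in their window were few. Of the 20 that were tested and matched by symbol, 18 had a higher mean in abnormal than in normal fibers, with a median change of 0.45 (0.26 with TMM-type factors). The 7 of these called higher were *Syvn1*, *Hspa5*, *Calr*, *Canx*, *Hsp90b1*, *Pdia6* and *Dnajc3*. All 7 are members, targets or signaling genes already counted above, so this count is not separate from those. *Ero1b*, a UPR target with an ERSE, has its values under the symbol *Ero1lb* and was left out of the 20. *Ero1b* was called higher too (0.39, adjusted p = 0.0354 by limma). In this comparison, none of the 20 outside the members and lists was called. Of 8 tested genes with an ERSE-II, 4 were called higher, among them *Herpud1* and *Dnajb11*. Of 114 with the UPRE core, 20 were called higher (17.5%), with a median change of 0.18 (0.03 with TMM-type factors). Among all 11324 tested genes with a window, 7.48% were called higher and the median change was 0.11. Against young fibers, abnormal fibers had 7 of 20 genes with an ERSE called higher and 1 called lower. Not all of these belong to the members and lists. Of the genes with an ERSE-II 1 of 8 was called higher, and of those with the UPRE core 7.89%, beside 6.1% of all genes with a window. Between normal and young fibers, 1 of the 20 genes with an ERSE was called lower and 0 higher. Of the 18 UPR targets, 16 had a window and 7 of them an ERSE. A match is a description of the letters and not of binding.

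The samples showed the markers of muscle fibers. Acta1, Ckm, Myh4, Tnnt3 and Pygm summed to 98100 to 138000 TPM, and *Myh4* and *Pygm* were higher in abnormal than in normal fibers. All 3 adipocyte markers (Adipoq, Plin1, Cidec) were at 0 in all samples. The 4 plasma cell markers, which were included because secretory cells are rich in *Xbp1*, summed to 0.577 to 1.79 TPM in abnormal, 0.356 to 1.22 TPM in normal and 0.167 to 1.80 TPM in young fibers. Macrophage markers summed to 0.457 to 2.95 TPM in abnormal, 0.161 to 1.60 TPM in normal and 0.124 to 0.449 TPM in young fibers, and Schwann cell markers to 3.57 to 7.45, 1.42 to 6.32 and 0.773 to 1.81 TPM in the same order. Both sums were thus higher in every abnormal than in every young sample, and their part in the changes of the members against young fibers was not tested. Satellite cell markers summed to at most 1.22 TPM in all samples. Endothelial, fibroblast, smooth muscle and erythroid markers summed to at most 18.5, 80.0, 62 and 457.0 TPM in any sample. None of the markers of other cell types was called between abnormal and normal fibers.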

How the data were processed

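RNA-seq values of 12 samples of isolated EDL fibers were used, 4 per group as labelled. Per the methods, RNA was extracted with TRIzol and libraries were made from 10 ng of it with the SMART-Seq v4 kit, which does not keep the strand. The authors aligned reads to GRCm39/mm39 and computed TPM with DRAGEN. The deposited TPM values summed to 1000000 in each sample. The annotation release is not given in the sources used here. Without counts, no counting interval was computed. Lines that shared a symbol (114 symbols) were summed.

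Protein-coding and mitochondrially-encoded genes with a group mean of 0.02 TPM or more (14428 genes) were fitted on log2(TPM + 1) with limma 3.58.1 in R 4.3.3 (3 groups, variance trend, Benjamini-Hochberg adjustment, threshold 0.05). In a simulation of abnormal against normal fibers with 14262 genes, 92% of 2-fold rises and 36% of rises of 0.5 (log2) were recovered. Changes were added only to genes with a mean level above 5 TPM. These rates therefore do not cover lower genes such as *Ern1*, *Eif2ak3* and *Atf6*. The members and lists were chosen with earlier results of these data known, so counts over them are descriptions. All members were named, and from each list up to 5 called genes with the smallest p, of which 1 is not reported here. *Atf4*, *Ddit3*, *Trib3*, *Mbtps1*, *Mbtps2*, *Edem1*, *Derl3*, *Os9*, *Ufd1* and the genes named with a motif were added after their values were seen. *Xbp1*, the member with the smallest p, was the reference for likeness.

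No source says that a replicate number marks a mouse. Deviations from the group means (4468 genes of at least 10 TPM) correlated at 0.326 to 0.507 between same-numbered normal and abnormal samples and at -0.43 to 0.28 between different numbers, so a replicate block was fitted. Between young and aged samples with the same number the values were -0.118 to 0.236, and no pairing was assumed. Other settings were TMM-type factors (30% of ratios and 5% of levels trimmed), a rescaling that left out mitochondrially-encoded genes, another filter (none, or 5 TPM), a pseudocount of 0.1, all annotated genes, fits of 2 groups, sample weights, the *Myh4* share, and each sample left out. The sum of *Vcp* and *Vcp-rs* was added after seeing the data. Loci and overlaps came from GENCODE vM39 (GRCm39), near copies from BLAST 2.17.0 (95% identity, 100 bp) and promoter windows from RefSeq. Scripts ran in Python 3.11.15 with pandas 2.3.3.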

Additional observations from a re-analysis of the deposited data

Results flagged for a closer look

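In the 42 groups of 4 samples that were examined, 2 had a single sample that stood apart from the other 3, and chance alone gives this in about 1 of 20 groups. In young fibers, replicate 2 had *Xbp1* at 78.24 TPM, where the other 3 samples were at 66.96 to 67.56 TPM. In Fluo-4 normal fibers, replicate 1 had *Xbp1* at 190.2 times the TPM of *Ern1*, where the others were at 63.94 to 73.22 times. In that sample *Ern1* was the lowest of the 12 samples (0.412 TPM), while *Xbp1* (78.38 TPM) lay within the range of its group.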

How the results depend on the processing

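For abnormal against normal fibers, the count of members called was 7 as reported, 2 with TMM-type factors and 4 without mitochondrially-encoded genes. It was 2 with only the groups compared, 4 with sample weights and 3 with the replicate block as a fixed term on those groups. It was 7 with the block as a random effect on all samples, and 0 with the *Myh4* share, alone or with the block. For the other ERAD genes it was 13 as reported, and in the same settings 2, 5 and 4, then 20 with the block as a random effect and 0 with the *Myh4* share, alone or with the block. For other UPR genes it was 14, with 7 for TMM-type factors, 8 for only the groups compared and 0 for the *Myh4* share, alone or with the block. For abnormal against young fibers, members called were 4, with 1 for TMM-type factors, 1 for the *Myh4* share and 0 with the block added. For other ERAD genes the counts were 9, 3 with the *Myh4* share and 0 with the block added. For other UPR genes they were 12, with 7 for TMM-type factors, 7 for the block (here a shared number only), 3 with the *Myh4* share and 0 with the block added. For normal against young fibers, sample weights called 1 other ERAD and 1 other UPR gene in place of 0. Leaving out 1 sample gave 3 to 7 members, 3 to 13 other ERAD genes and 7 to 15 other UPR genes for abnormal against normal fibers (the low count of 7 without abnormal replicate 2), 1 to 5, 3 to 12 and 5 to 15 for abnormal against young, and 0 to 1 other ERAD genes for normal against young. For abnormal against young, other ERAD genes numbered 3 without abnormal replicate 2, 4 without young replicate 1, young replicate 4 or abnormal replicate 4, and 5 without replicate 3 of either group. Other UPR genes numbered 5 without young replicate 4, 6 without abnormal replicate 2, and 7 without young replicate 1 or abnormal replicate 4.

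All changes of sign were in values that did not pass the test. For abnormal against normal fibers, *Ern1* was at -0.38 with the *Myh4* share and -0.029 with the block added, and *Eif2ak3* at -0.33 with the block and the share. Against young fibers, *Ern1* was at -0.11 with the share, and *Eif2ak3* at -0.074 with TMM-type factors, -0.012 with the block and the share, and -0.012 to 0.093 with 1 sample left out. Between normal and young fibers, the block with the share gave 0.21 for *Eif2ak3*, 0.057 for *Herpud1*, 0.23 for *Sel1l*, 0.27 for *Syvn1*, 0.20 for *Derl1* and 0.18 for *Vcp*. TMM-type factors gave 0.010 for *Sel1l*, 0.0080 for *Syvn1* and 0.028 for *Vcp*, sample weights 0.054, 0.017 and 0.037, and the *Myh4* share 0.11 for *Sel1l* and 0.092 for *Vcp*, which was at 0.0062 without mitochondrially-encoded genes. With 1 sample left out, the ranges were -0.065 to 0.22 for *Ern1*, -0.11 to 0.12 for *Sel1l*, -0.16 to 0.061 for *Syvn1*, -0.14 to 0.013 for *Derl1*, -0.15 to 0.025 for *Derl2* and -0.089 to 0.083 for *Vcp*. The causes were not tested. Machinery minus sensors differed between abnormal and normal fibers by 0.015, and by -0.11 with a pseudocount of 0.1. Depth is unknown, which leaves the precision of the low values of *Ern1* and *Eif2ak3* unknown too.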
